A study of Mus musculus with 6 samples.

Results

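The miR-379 to miR-410 cluster is a run of miRNA hairpins in the imprinted Dlk1-Dio3 region of mouse chromosome 12. Its mature miRNAs were followed by name in small RNA sequencing of extracellular vesicles recovered from mouse brain, and 39 of the 1926 features in the deposited table belonged to it. miR-134 and the miR-376 family, which lie in the same run, were kept apart from these 39. A group of 3 libraries (CON-BDEV 1 to 3) came from vesicles of matched control mice, and another of 3 (SE-BDEV 1 to 3) from mice that had experienced status epilepticus, a prolonged seizure. All titles carry day 10. The sources used here do not give the event from which the day is counted, the strain, the age or the way seizures were produced. Nothing in the labels says that each library is a different animal. The p-values therefore measure only library-to-library spread, which may be technical.

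In mice the cluster is expressed from the maternally inherited chromosome. Its hairpins are cut from long non-coding transcripts, of which Mirg is the one that carries the distal hairpins. Expression is highest in brain and placenta, and in neurons transcription of the cluster responds to synaptic activity through the factor Mef2. Several of its miRNAs are known regulators of dendrites and synapses, among them miR-134, miR-329 and miR-381, which act in activity-dependent dendrite growth, and miR-485-5p, which represses the synaptic vesicle protein SV2A. A miRNA recognises its targets mainly through its seed, bases 2 to 8 from the 5′ end.

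The 39 features come from 26 hairpins on the plus strand of chromosome 12. In RefSeq's GRCm38.p6 tables they span 34.7 kb, chr12:109709060-109743795. The submitters' processing notes name mm9, so these positions describe the reference and not the alignment behind the counts. In the GENCODE M21 annotation of GRCm38, 16 of the hairpins lie before the annotated start of Mirg and 10 within it. Of those 10, 3 are wholly exonic, 3 overlap an exon in part and 4 are intronic. The Mir382 hairpin at chr12:109733771-109733846 is one of those that overlap a Mirg exon in part, whereas Mir323 (chr12:109712508-109712593) and Mir667 (chr12:109720006-109720097) lie before the gene.

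RefSeq (GRCm38.p6) held a mature sequence for 36 of the 39, all but miR-487b-3p, miR-485-5p and miR-539-3p. Those on which the results below turn are printed 5′ to 3′ with the seed in capitals, first the 5 with the smallest p among those lower in SE-BDEV.
mmu-miR-382-5p: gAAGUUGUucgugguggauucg
mmu-miR-667-3p: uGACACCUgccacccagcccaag
mmu-miR-323-5p: aGGUGGUCcguggcgcguucgc
mmu-miR-485-3p: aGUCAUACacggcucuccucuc
mmu-miR-668-3p: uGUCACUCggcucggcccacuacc

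The following are 4 of the 5 with the smallest p among those higher in SE-BDEV (the other is miR-487b-3p), with both arms of miR-299a and with miR-300-3p, which is close in sequence to miR-381-3p.
mmu-miR-299a-5p: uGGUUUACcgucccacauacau
mmu-miR-299a-3p: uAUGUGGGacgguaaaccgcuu
mmu-miR-154-5p: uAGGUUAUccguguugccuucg
mmu-miR-411-5p: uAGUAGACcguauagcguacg
mmu-miR-381-3p: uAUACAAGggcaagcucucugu
mmu-miR-300-3p: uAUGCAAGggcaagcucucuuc

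The last set holds other abundant members and the only members that share a seed, miR-379-3p and miR-411-3p.
mmu-miR-369-5p: aGAUCGACcguguuauauucgc
mmu-miR-541-5p: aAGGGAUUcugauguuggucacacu
mmu-miR-379-3p: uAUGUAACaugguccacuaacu
mmu-miR-411-3p: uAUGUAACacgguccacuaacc

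miR-299a-5p and miR-299a-3p are listed only in rows merged with miR-299b. Apart from miR-379-3p and miR-411-3p, each miRNA printed had a seed of its own among the 36. The pair that shares the seed AUGUAAC is identical at 90.9% of bases over the full length, and miR-300-3p and miR-381-3p at 86.4% with 1 seed mismatch.

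Cluster miRNAs were present in every library, and a single one supplied most of their reads. The depth was 4400167 to 9391887 miRNA reads per library. Levels are given in RPM, the authors' scaling of reads to a common library total, which takes no account of length (the mature sequences run from 19 to 25 bases). Between 34 and 36 of the 39 members were above 0 in each library, and 37 in at least 1. miR-654-3p and miR-539-3p were listed at 0 in all 6. A count of 3 reads, the upper limit for counting error where no read was seen, corresponded to 0.319 to 0.682 RPM. The smallest listed value was 2 reads, so a listed 0 may also stand for a single read, and the limit is then higher.

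The members differed widely in level. The minimum for the test, 10 RPM on average across libraries, was reached by 22 members. The 2 most abundant had means of 11698 and 1223 RPM, the next 10 lay between 125 and 839 RPM and the other 10 between 10.0 and 62.1 RPM. These 2 were miR-382-5p and miR-411-5p, followed by miR-485-5p (839 RPM), miR-369-5p (668 RPM), miR-154-5p (660 RPM) and miR-541-5p (371 RPM). The values of miR-485-5p, miR-369-5p and miR-154-5p overlap across libraries, so their order is not fixed by these data.

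**Figure D1:**
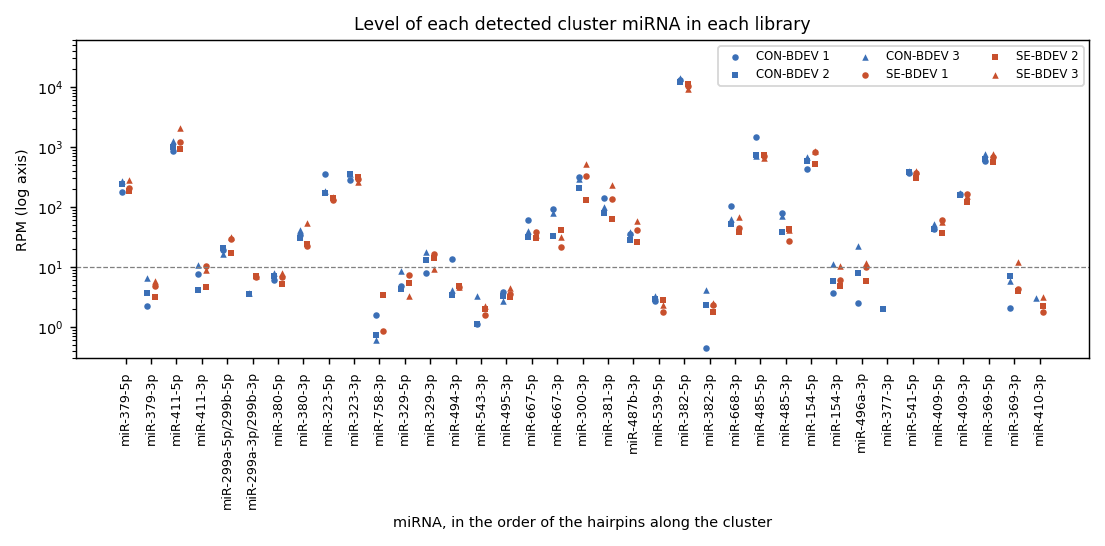
Level in RPM (log axis) of the 37 detected cluster miRNAs in each of the 6 libraries, in the order of their hairpins along the chromosome. Blue symbols are CON-BDEV and red symbols SE-BDEV, the symbol shape gives the library number, the dashed line marks 10 RPM, and values of 0 are not drawn. miR-382-5p lies above all other members in every library.

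The remaining 17 members were below the minimum and were not tested. They had means of up to 7.80 RPM (miR-411-3p), 14 of them were 3p arms, 11 were above 0 in all libraries and 4 in some. The least abundant tested member, miR-496a-3p, had a mean of 10.0 RPM with single libraries from 2.5 to 22.2 RPM. Those counts run from 11 to 146 reads, so its values are far less precise than those of miR-382-5p, which rest on 55943 to 98876 reads. All counting statements cover sampling of reads only.

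The stated comparison, vesicles after status epilepticus against control vesicles, gave no cluster miRNA past the threshold. Of the 22 tested members 10 were higher and 12 lower in SE-BDEV, and 0 had a limma adjusted p under 0.05. Over all 308 tested miRNAs 3 were called (0.974%), all higher. At an unadjusted p under 0.05, 1 member was lower (miR-667-3p) and 0 higher, against 2.27% of all tested miRNAs lower and 8.12% higher. The groups did not overlap for 2 members, both lower in SE-BDEV, and for 0 higher ones. Over all tested miRNAs the groups did not overlap for 5.52% in the lower direction and 10.7% in the higher direction.

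The median log2 difference, SE-BDEV minus CON-BDEV on the log2(RPM + 1) scale, was -0.070 over the tested members and 0.061 over all tested miRNAs. The moderated standard errors of single members ran from 0.17 (miR-382-5p) to 0.66 (miR-496a-3p). Differences of the members ran from -1.003 to 0.41. With the replicate number as a block, 10 of the 308 miRNAs were called and still 0 members. In vesicles from whole brain tissue, fewer vesicles of one cell type and less of a miRNA per vesicle cannot be told apart.

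**Figure D2:**
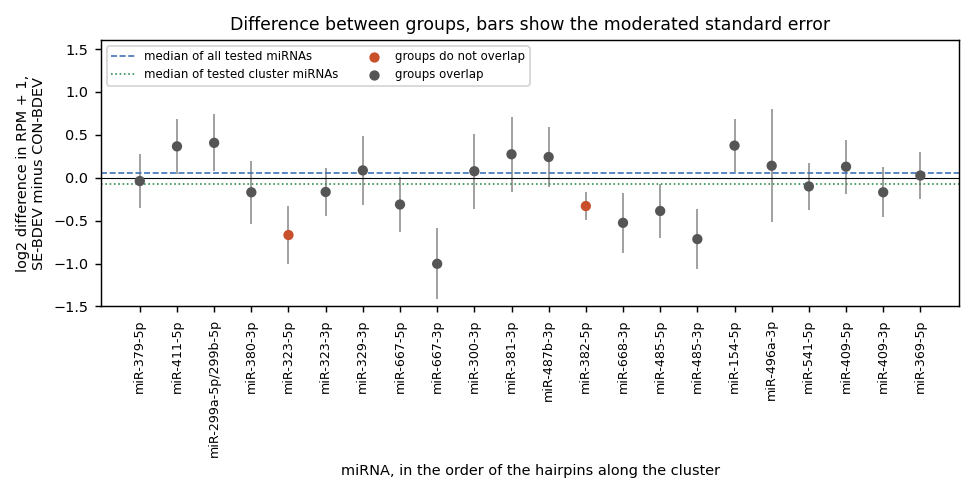
Log2 difference in RPM + 1, SE-BDEV minus CON-BDEV, for the 22 tested cluster miRNAs in the order of their hairpins (points, bars show the moderated standard error). Red points, miR-323-5p and miR-382-5p, mark members whose groups do not overlap, and the dashed and dotted lines are the medians of all tested miRNAs (0.061) and of the tested members (-0.070).

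miR-382-5p, the dominant member, was lower in each SE-BDEV library than in any CON-BDEV library. It measured 13017, 12136 and 13927 RPM in CON-BDEV 1 to 3 and 10443, 11197 and 9466 RPM in SE-BDEV 1 to 3. The groups did not overlap, with the lowest value in SE-BDEV 3 and the highest in CON-BDEV 3. The group means were 13027 ± 895 and 10369 ± 868 RPM (SD, n = 3), a log2 difference of -0.33 ± 0.17 (SE, limma adjusted p = 0.438). The difference is larger than the spread within either group but did not pass the threshold over 308 miRNAs. It kept its sign in all alternatives, between -0.22 and -0.60, the last with a trend on the GC content of the hairpin removed (limma adjusted p = 0.242, and 0.124 with the replicate block as well).

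miR-382-5p made up most of the summed level of the cluster, which was also lower in SE-BDEV. Within SE-BDEV the sum did not follow miR-382-5p. SE-BDEV 3 had the lowest miR-382-5p and the highest sum of that group, and SE-BDEV 2 the reverse. All 39 members together made 18684, 17076 and 19638 RPM in CON-BDEV 1 to 3 and 15899, 15559 and 16312 RPM in SE-BDEV 1 to 3. Every SE-BDEV library was below every CON-BDEV library, with means of 18466 ± 1295 and 15923 ± 377 RPM (SD, n = 3) and a ratio of 0.862. As a share of all miRNA reads this was 1.85% ± 0.129 and 1.59% ± 0.0377, controls first. The let-7 family made up 80.5% ± 1.26 and 78.8% ± 2.72 of reads. Outside let-7 the cluster's share was 9.47% ± 0.529 and 7.59% ± 0.859 (SD, n = 3), again with no overlap.

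Without miR-382-5p the sum showed no such separation. The other 38 members summed to 5667, 4940 and 5711 RPM in CON-BDEV and 5456, 4361 and 6846 RPM in SE-BDEV. SE-BDEV held both the highest and the lowest of these values, and the ratio of the means was 1.02. miR-382-5p was 70.6% ± 0.769 of the cluster's reads in control libraries and 65.2% ± 6.98 after status epilepticus (SD, n = 3), with its lowest share, 58.0%, in SE-BDEV 3.

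**Figure D3:**
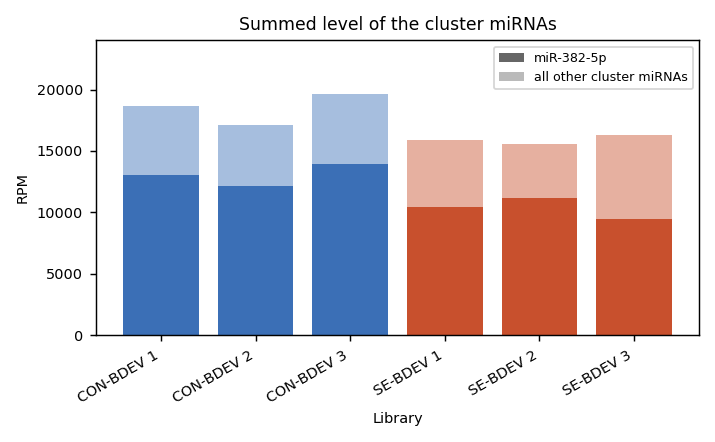
Summed RPM of the 39 cluster miRNAs in each library, split into miR-382-5p (solid) and all other members (pale), blue for CON-BDEV and red for SE-BDEV. The totals are 17076 to 19638 RPM for CON-BDEV and 15559 to 16312 RPM for SE-BDEV, while the pale parts of the groups overlap.

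The members with the smallest p among those lower in SE-BDEV came from hairpins before Mirg (miR-667 and miR-323) and within it (miR-485, miR-382 and miR-668). miR-667-3p measured 93.9, 32.4 and 80.3 RPM in CON-BDEV 1 to 3 and 21.8, 41.6 and 31.9 RPM in SE-BDEV 1 to 3. CON-BDEV 2 lay among the SE-BDEV values, and the other control libraries lay above them all. The log2 difference was -1.003 ± 0.41 (SE, limma unadjusted p = 0.0304, adjusted p = 0.438). Without CON-BDEV 2 it was -1.47 and passed the threshold (limma adjusted p = 0.0214), in a fit where 1.3% of all tested miRNAs were called lower. Over all alternatives its limma or deposited adjusted p ran from 0.0214 to 0.845, and with the replicate block it was 0.0560.

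miR-323-5p measured 359, 173 and 182 RPM in CON-BDEV and 131, 144 and 148 RPM in SE-BDEV. The groups did not overlap, and CON-BDEV 1 stood far above the other 5 libraries. The log2 difference was -0.67 ± 0.34 (SE, limma adjusted p = 0.438). Without CON-BDEV 1 it was -0.33, and with a trend on mature GC content removed -0.095 (limma adjusted p = 0.857 and 0.897). With the GC content of the hairpin in its place it was -0.65.

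miR-485-3p measured 78.6, 38.8 and 71.9 RPM in CON-BDEV and 27.3, 43.2 and 40.7 RPM in SE-BDEV, a log2 difference of -0.72 ± 0.35 (SE, limma adjusted p = 0.438). As for miR-667-3p, CON-BDEV 2 fell within the SE-BDEV range. The opposite arm, miR-485-5p, measured 1466, 751 and 706 RPM in CON-BDEV and 700, 745 and 665 RPM in SE-BDEV. Here CON-BDEV 1 alone was high and the other 5 libraries lay between 665 and 751 RPM. Its log2 difference of -0.39 ± 0.31 (SE, limma adjusted p = 0.673) became -0.052 without CON-BDEV 1. miR-668-3p measured 105, 52.8 and 63.5 RPM in CON-BDEV and 45.04, 38.2 and 67.6 RPM in SE-BDEV, also with CON-BDEV 1 highest. Its log2 difference was -0.53 ± 0.35 (SE, limma adjusted p = 0.608), -0.24 without CON-BDEV 1 and -0.11 with the trend on mature GC content removed.

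No member higher in SE-BDEV had groups that did not overlap among those tested. The merged row of miR-299a-5p measured 19.1, 20.9 and 16.6 RPM in CON-BDEV and 29.7, 17.2 and 31.1 RPM in SE-BDEV, a log2 difference of 0.41 ± 0.33 (SE, limma adjusted p = 0.678). SE-BDEV 1 and 3 were above all controls and SE-BDEV 2 among them. miR-154-5p measured 433, 597 and 687 RPM in CON-BDEV and 844, 524 and 874 RPM in SE-BDEV, a difference of 0.37 ± 0.31 (SE, limma adjusted p = 0.678). It had the same order, with SE-BDEV 2 inside the control range. Leaving out 1 library gave 0.19 (without CON-BDEV 1) to 0.61 (without SE-BDEV 2) for miR-154-5p, and 0.26 (without SE-BDEV 3) to 0.67 (without SE-BDEV 2) for miR-299a-5p.

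miR-411-5p, the second most abundant member, measured 851, 1001 and 1274 RPM in CON-BDEV and 1209, 924 and 2078 RPM in SE-BDEV. Only SE-BDEV 3 was above the controls. The log2 difference was 0.37 ± 0.32 (SE, limma adjusted p = 0.684), and 0.040 without SE-BDEV 3. miR-381-3p, one of the dendrite regulators, measured 141, 79.2 and 100.3 RPM in CON-BDEV and 137, 62.8 and 231 RPM in SE-BDEV. SE-BDEV held its highest and its lowest value, and the log2 difference of 0.27 ± 0.44 (SE, limma adjusted p = 0.837) was -0.16 without SE-BDEV 3. miR-487b-3p measured 35.9, 28.2 and 38.9 RPM in CON-BDEV and 41.5, 26.6 and 59.6 RPM in SE-BDEV, a difference of 0.24 ± 0.35 (SE, limma adjusted p = 0.803) that was -0.032 without SE-BDEV 3.

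Of the 6 most abundant members, miR-541-5p and miR-369-5p had the smallest differences. miR-541-5p measured 370, 384 and 396 RPM in CON-BDEV and 367, 311 and 400 RPM in SE-BDEV, a log2 difference of -0.10 ± 0.28 (SE, limma adjusted p = 0.921). miR-369-5p measured 584, 644 and 757 RPM in CON-BDEV and 685, 566 and 772 RPM in SE-BDEV, a difference of 0.025 ± 0.27 (SE, limma adjusted p = 0.964). For miR-541-5p, SE-BDEV 1 and 2 lay below all controls and SE-BDEV 3 above them. For miR-369-5p the groups cover nearly the same range. The other 9 tested members (miR-379-5p, miR-380-3p, miR-323-3p, miR-329-3p, miR-667-5p, miR-300-3p, miR-496a-3p, miR-409-5p and miR-409-3p) had log2 differences between -0.31 and 0.14.

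Position along the cluster gave no clear division. Of the 12 tested members before Mirg, 6 were higher and 6 lower with a median log2 difference of 0.018. Of the 10 tested members within Mirg, 4 were higher and 6 lower with a median of -0.14. These medians are descriptions and their difference was not tested.

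Members with a GC-rich mature sequence and members with a GC-poor one stood apart by library. Across the 20 tested members with a sequence, the log2 difference between groups went with GC content at Pearson's r = -0.69 and Spearman's rho = -0.61. Across the 270 tested miRNAs with a sequence the values were -0.51 and -0.57. These correlations are across miRNAs that share the same 6 libraries, and are descriptions with no test. Split at the members' median GC content of 48.9%, the 10 GC-rich members were 2 higher and 8 lower (median -0.32) and the 10 GC-poor ones 7 higher and 3 lower (median 0.11).

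Single libraries carried much of this pattern. In CON-BDEV 1 the GC-rich members had a median deviation of 0.42 on the log2 scale from their mean over the 6 libraries and the GC-poor ones -0.18. In SE-BDEV 3 the medians were -0.18 and 0.37, and in SE-BDEV 1 they were -0.10 and 0.15. Over all tested miRNAs split at the same GC content, the medians in CON-BDEV 1 were 0.37 and -0.35. In SE-BDEV 3 they were -0.022 and 0.32, so there the GC-rich miRNAs as a whole were not as low as the GC-rich members. SE-BDEV 3 was the highest library for 10 of the 22 tested members and CON-BDEV 1 for 6, and SE-BDEV 2 was the lowest for 9. The part of base composition in the group differences was not tested beyond the fits with a GC trend removed. For miR-382-5p, whose mature sequence has a GC content of 50%, the difference was -0.36 with the mature GC trend removed.

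**Figure D4:**
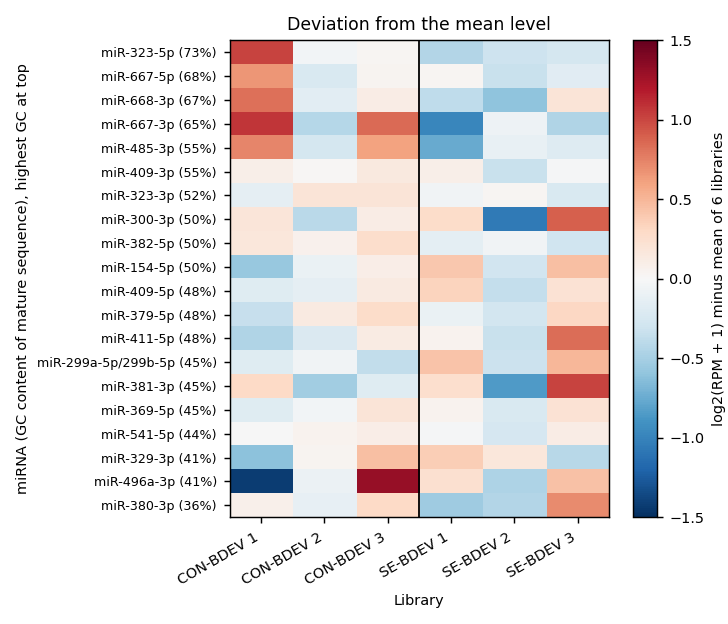
Deviation of log2(RPM + 1) from the mean of the 6 libraries for the 20 tested cluster miRNAs with a RefSeq sequence, ordered from the highest GC content of the mature sequence (top) to the lowest, one column per library with control libraries left of the black line. Red is above and blue below the mean, and CON-BDEV 1 is above the mean for the 6 members at the top.

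The hairpins of the cluster differed in how far 1 arm prevailed. Both arms were listed, with at least 1 above 0, for 25 of the 26 hairpins, of which 12 were dominated by the 5p arm and 13 by the 3p arm. In 13 of them more than 90% of the mean RPM came from 1 arm, the lowest of these being miR-410 at 90.8%, and in the other 12 the second arm gave at least 10.9%. miR-382 gave 99.97% to 100% of its reads from the 5p arm in all 6 libraries, and miR-411, miR-154 and miR-369 at least 98.4%. The opposite arms that are not among the 39 members were counted here only for this ratio.

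Both arms reached 10 RPM in 5 of these hairpins, and their 5p share could be compared between groups. The 5p share of miR-667 was 39.3%, 49.9% and 32.8% in CON-BDEV and 64.1%, 41.9% and 51.5% in SE-BDEV, a log2 difference in the 5p to 3p ratio of 0.69 ± 0.46 (SE, limma adjusted p = 0.832). The 5p share of miR-323 was 56.3%, 33.1% and 34.2% in CON-BDEV and 30.8%, 31.5% and 36.3% in SE-BDEV, a difference of -0.50 ± 0.41 (SE, limma adjusted p = 0.924). CON-BDEV 1 alone stood out for miR-323, and the groups overlap for both hairpins. The differences for miR-300, miR-485 and miR-409 were 0.097, 0.33 and 0.30. Single libraries moved several of these values. The difference of miR-323 was -0.054 without CON-BDEV 1, that of miR-667 was 0.36 without SE-BDEV 1, that of miR-485 was 0.013 without CON-BDEV 3 and that of miR-300 ran from -0.26 without SE-BDEV 2 to 0.37 without SE-BDEV 3. None of the 5 was called by limma, 0 had an unadjusted p under 0.05, and over all 51 hairpins tested 0.0% were called, with 3 at an unadjusted p under 0.05.

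**Figure D5:**
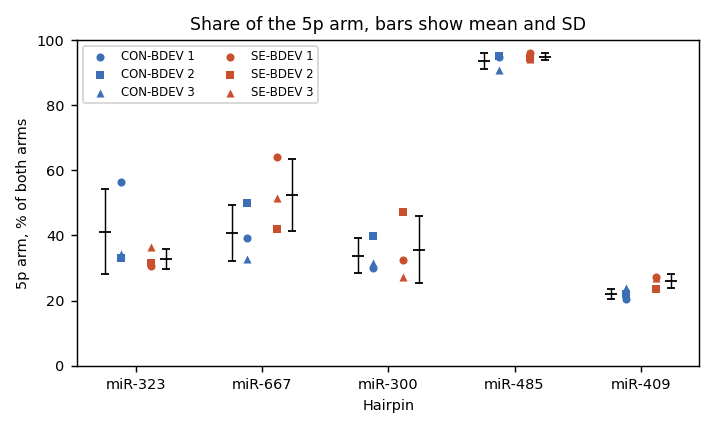
Share of the 5p arm, in percent of both arms, for the 5 cluster hairpins with both arms at a mean of 10 RPM or more. Coloured symbols are single libraries (blue CON-BDEV, red SE-BDEV, shape by library number), and black bars give the mean and SD of each group (n = 3). The groups overlap for miR-323, miR-667, miR-300 and miR-485, and for miR-409 CON-BDEV 3 lies above SE-BDEV 2.

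The pair close in sequence kept a steady proportion. The ratio of miR-300-3p to miR-381-3p lay between 2.10 and 2.97 in the 6 libraries, with group means of 2.60 ± 0.379 (CON-BDEV) and 2.26 ± 0.178 (SE-BDEV) (SD, n = 3), while miR-300-3p itself ranged from 132 to 515 RPM. The sources used here do not say how reads that match both were assigned. The seed-sharing pair, miR-379-3p and miR-411-3p, was below the minimum for the test in both members, with means of 4.40 and 7.80 RPM.

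Among the members below the minimum, the merged row of miR-299a-3p had groups that did not overlap. It was listed at 0 in CON-BDEV 1 and measured 3.56 and 3.65 RPM in CON-BDEV 2 and 3, against 6.81, 7.01 and 7.11 RPM in SE-BDEV. With at most 64 reads in a library it was not tested, and in the authors' deposited table its log2 fold change was 1.41 with a standard error of 1.20 and an adjusted p of 0.815. miR-410-3p, the last hairpin's member, was at 0 in CON-BDEV 1 and 2 and at 1.81 to 3.11 RPM in the other 4 libraries. miR-377-3p was above 0 only in CON-BDEV 2, at 1.96 RPM.

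The authors' deposited table, a count-based comparison, held 37 of the 39 members. Per the authors' deposited table, 0 of them had an adjusted p under 0.05 and the lowest was 0.290, against 1.63% of the tested miRNAs that have an adjusted p there. There were 4 members with an unadjusted p under 0.05, all lower, in the authors' deposited table, where 5.84% of tested miRNAs were lower at that level. These were miR-323-5p (log2 fold change -0.80, p = 0.0125), miR-667-3p (-1.12, p = 0.0182), miR-485-3p (-0.79, p = 0.0334) and miR-382-5p (-0.39, p = 0.0341) in the authors' deposited table. Over the 22 tested members the median log2 fold change in the authors' deposited table was -0.16, with 7 higher and 15 lower. Over all tested miRNAs the median there was -0.024.

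The other miRNAs of the imprinted region gave no limma call either. Of 4 tested miRNAs in the set of miR-134 and the miR-376 family, 3 were higher and 1 lower, with a median log2 difference of 0.45. Its highest difference was 1.09 (lowest limma adjusted p in the set = 0.344). The other arms of the cluster had 6 tested, 1 higher and 5 lower, with a median of -0.24. On the Meg3 side, which is the proximal part of the region, 20 of 34 were tested, 6 higher and 14 lower with a median of -0.16. The summed level of that side was 11839 ± 468 RPM in control libraries and 10900 ± 2071 RPM after status epilepticus (SD, n = 3). Its groups did not overlap for 2 tested miRNAs, both lower, against 5.52% lower over all tested miRNAs. In the set of miR-134 and the miR-376 family they did not overlap for 1, which was higher, against 10.7% higher over all. For the other arms of the cluster the number was 0.

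Markers of brain cells were read beside these values. All 12 rows of neuronal miRNAs such as miR-124-3p and miR-9-5p were detected and tested, 11 higher and 1 lower with a median log2 difference of 0.36 and 0 called, and their sums were 28716 to 35457 RPM for CON-BDEV and 27120 to 49321 RPM for SE-BDEV. A list of 6 miRNAs of microglia and inflammation had 5 tested, all higher and 3 called. These are the only 3 called over all 308 tested miRNAs (0.974%). The sums of this list were 85.2 to 119 RPM for CON-BDEV and 472 to 601 RPM for SE-BDEV. The blood list had 2 of 4 tested, 1 higher and 1 lower with 0 called. Their log2 differences were 0.51 and -0.075, and only for the higher one did the groups not overlap. The list's sums were 6451 to 9284 RPM for CON-BDEV and 11004 to 11968 RPM for SE-BDEV, with no overlap. These sums hold no reads of the list's red cell miRNA miR-451a or the neighbouring miR-144-3p, which had none listed in any library. The oligodendrocyte list had 2 of 3 tested, both higher with 0 called, and its sums were 137 to 170 RPM for CON-BDEV and 198 to 296 RPM for SE-BDEV, with no overlap and with miR-219a-5p listed at 0. Both endothelial miRNAs were higher with 0 called, and their sums were 2828 to 4276 RPM for CON-BDEV and 4116 to 6342 RPM for SE-BDEV, with some overlap. The part of cell makeup in the cluster's values was not tested.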

How the data were processed

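The authors deposited RPM values for 1926 miRNA features in 6 libraries. The authors' DESeq2 comparison was deposited too, and holds p-values (raw and adjusted), log2 fold changes, a score for each test and a mean signal per feature. The build mm9 is named in the submitters' processing notes. Per the labels' protocols, RNA was isolated with a miRNeasy Micro kit and DNase, and libraries used a QIAseq miRNA kit. The sources used here give no aligner, counting tool or use of molecular identifiers.

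All RPM values were whole multiples (tolerance 0.001) of 1 step per library, which gave the depths. The smallest listed value was 2 reads, so no count model was fitted. limma 3.58.1 (R 4.3.3, statmod 1.5.0) was run on log2(RPM + 1), with robust empirical Bayes and an intensity trend (two-sided), for 308 miRNAs at a mean of 10 RPM or more. Calls were Benjamini-Hochberg adjusted p under 0.05. This scale understates changes of low miRNAs. The fit was tested on simulated data with planted changes larger than any difference of a tested member, and without GC effects. It therefore does not show whether differences of the members' size would be called. Arm ratios used the same test over 51 hairpins. Mature sequences came from RefSeq (GRCm38.p6), and GC content was available for 87.7% of tested miRNAs (98.7% for GENCODE M21 hairpins).

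Members and lists were chosen with earlier results of these data known. Values are given per library for the 6 tested members of highest mean, the 5 of smallest p in each direction and those whose groups do not overlap. Same-number libraries correlated in their deviations at 0.216, 0.202 and 0.462, but at -0.064, -0.061 and -0.081 without miR-24-3p, which was above 0 only in the libraries numbered 3. The labels do not say that numbers mark pairs.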

Additional observations from a re-analysis of the deposited data

How the results depend on the processing

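The count of members called by limma stayed at 0 in 23 of 24 alternatives, and leaving out 1 library gave 0 to 1, the 1 being miR-667-3p in the fit that omits CON-BDEV 2. The replicate block gave 0. The median log2 difference stayed within -0.19 to 0.067. Taking the total without the 10 most abundant miRNAs moved the log2 ratio of the summed level from -0.21 to -0.30, and leaving out 1 library gave -0.27 to -0.17. That scaling, median-of-ratios and quantile normalization gave 8, 9 and 6 members higher of 22, against 10. The median log2 difference over all tested miRNAs moved down as well, to -0.028, -0.0078 and -0.011 in these fits, against 0.061.

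Signs changed for 3 of 13 named members, none called. miR-369-5p was at -0.046 with median-of-ratios scaling, -0.067 without the 10 most abundant, -0.099 with quantile normalization, -0.13 with the mature GC trend removed (also with the replicate block), -0.19 with the hairpin GC trend removed (also with the replicate block), and -0.055 in the authors' deposited table. Leaving out 1 library gave -0.078 to 0.15 for miR-369-5p, -0.16 to 0.77 for miR-381-3p, -0.032 to 0.53 for miR-487b-3p and -0.26 to 0.37 for the arm ratio of miR-300. Without both libraries numbered 3, miR-381-3p was at -0.19. The causes were not tested.

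Hairpin GC and the block without miR-24-3p were chosen after seeing the data. The planned edgeR fit was not run, because no single reads are listed.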
